A study of Homo sapiens with 12 samples.

Results

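Transcript levels of 9 heat shock chaperone genes and of HSF1, the transcription factor that induces many of them, were followed in HEK293 cells treated with epidermal growth factor (EGF) and cordycepin. The 10 genes were HSPA1A, HSPA1B, HSPA8, HSPH1, DNAJB1, HSP90AA1, HSP90AB1, HSPD1, HSPE1 and HSF1, picked by symbol out of the 26058 genes in the deposited table, and all 10 were found. HEK293 is a human embryonic kidney line. The study asked whether the response to cordycepin, an adenosine analogue without the 3′ hydroxyl group, depends on AMPK, the kinase that senses a shortage of energy in the cell. Wild-type cells (WT) were compared with cells in which CRISPR-Cas9 had disrupted both genes for the catalytic subunit of AMPK (AMPK KO); whether the knockout line was a single clone was not given in the sources used here. All cells were kept in low serum for 24 h. The 3 groups of each line received DMSO alone (0.025%), DMSO and then EGF for 30 min (DMSO+EGF), or 25 µM cordycepin and then EGF for 30 min (cordycepin+EGF), with 50 min of treatment in total. The sources differ on whether EGF was at 15 nM or 15 µM, and on whether the cells given DMSO alone were harvested after the full time or before the EGF step. No group received cordycepin without EGF. Each of the 6 groups had 2 libraries of ribosomal RNA-depleted total RNA, numbered 2 and 3, which the study calls biological replicates.

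Heat shock proteins are chaperones: they bind unfolded chains, help them to fold and prevent aggregation. HSF1 is held inactive in unstressed cells and, when unfolded protein builds up, forms trimers that bind heat shock elements, arrays of the sequence GAA in alternating orientation, in the promoters of chaperone genes. The family includes forms that are strongly stress-inducible, such as HSPA1A, HSPA1B and DNAJB1, and forms that are abundant in unstressed cells, such as HSPA8 and HSP90AB1.

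The libraries differed in depth. Reads recovered from the RPKM values (reads per kilobase of gene, scaled to library size) numbered 3540650 in WT DMSO replicate 3 and 11194182 to 23426661 in the other 11 libraries. The WT DMSO replicates were also the least alike. Their log2 values correlated at 0.918 across genes, where the pairs of the other 5 groups reached 0.961 to 0.977. For the chaperone genes and HSF1, comparisons with the WT DMSO group are given with and without each of its libraries. The PRKAA1 and PRKAA2 differences in DMSO, the correlations between genes and the named genes of the wider lists are given only with all libraries. Of the HEK293 markers, VIM lay between 49.1 and 82.3 RPKM, and KRT8, KRT18 and NEFL were also expressed, whereas NEFM and PAX2 were at most 0.342 and 0.851 RPKM. The leukocyte marker PTPRC was at most 0.061 RPKM. PRKAA1 and PRKAA2, the genes disrupted in the knockout, were still transcribed in AMPK KO cells. PRKAA1 was 21.9 and 15.4 RPKM in WT DMSO and 7.62 and 7.37 RPKM in AMPK KO DMSO (log2 fold change -1.26, limma adjusted p 0.0228), and PRKAA2 was 12.1 and 7.97 RPKM against 5.585 and 6.085 RPKM (-0.73, adjusted p 0.112). With cordycepin+EGF the lines were closer, at -0.49 for PRKAA1 (adjusted p 0.28) and at -0.12 for PRKAA2 (adjusted p 0.804), whose libraries overlapped.

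The promoters of 9 of the 10 genes were read from RefSeq (GRCh38.p14), 250 bases before to 50 bases after each annotated start, which gave 15 windows because some genes have several starts. Of these, 4 are shown. They belong to the 3 genes with the largest estimated difference between the lines in the response to cordycepin (HSPA1A, HSPA1B, DNAJB1), and to HSPA8, an abundant relative with a smaller one. The difference passed adjustment for none of these 4 genes. The sequences run 5′ to 3′ on the strand of the gene, and capitals mark matches to a heat shock element, searched on both strands as GAANNTTC or TTCNNGAA (2 units) and as GAANNTTCNNGAA or TTCNNGAANNTTC (3 units, which contain the shorter form).
HSPA1A (chr6:31815293-31815592, plus strand): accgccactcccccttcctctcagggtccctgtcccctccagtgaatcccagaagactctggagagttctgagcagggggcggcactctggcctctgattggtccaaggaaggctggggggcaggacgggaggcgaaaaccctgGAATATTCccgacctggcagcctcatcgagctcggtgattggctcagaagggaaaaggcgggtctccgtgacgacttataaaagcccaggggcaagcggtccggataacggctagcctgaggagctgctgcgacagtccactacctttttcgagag
HSPA1B (chr6:31827488-31827787, plus strand): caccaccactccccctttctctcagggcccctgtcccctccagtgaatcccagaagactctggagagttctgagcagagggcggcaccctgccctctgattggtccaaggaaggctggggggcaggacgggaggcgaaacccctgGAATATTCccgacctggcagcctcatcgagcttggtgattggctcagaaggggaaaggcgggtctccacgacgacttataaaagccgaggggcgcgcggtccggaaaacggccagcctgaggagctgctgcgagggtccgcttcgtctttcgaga
DNAJB1 (chr19:14518348-14518647, minus strand): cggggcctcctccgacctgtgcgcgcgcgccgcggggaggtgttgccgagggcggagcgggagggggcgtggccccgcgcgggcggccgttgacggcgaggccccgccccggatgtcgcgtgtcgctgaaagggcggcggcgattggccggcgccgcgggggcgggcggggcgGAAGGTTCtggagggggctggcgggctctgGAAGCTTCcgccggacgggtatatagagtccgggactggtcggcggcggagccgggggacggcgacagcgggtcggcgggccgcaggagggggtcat
HSPA8 (chr11:123062087-123062386, minus strand): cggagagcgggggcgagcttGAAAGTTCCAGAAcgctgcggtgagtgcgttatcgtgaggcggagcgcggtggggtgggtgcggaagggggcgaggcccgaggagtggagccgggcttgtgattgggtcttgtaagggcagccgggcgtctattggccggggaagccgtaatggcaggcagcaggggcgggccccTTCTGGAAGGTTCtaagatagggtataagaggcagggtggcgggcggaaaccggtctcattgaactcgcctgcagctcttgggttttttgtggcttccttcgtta
The HSPA1A and HSPA1B windows each held 1 match of 2 units, GAATATTC, beginning 106 and 105 bases before the start. The DNAJB1 window held 2 such matches. In HSPA8 there were 2 matches of 3 units. Of the genes not printed, HSP90AA1, HSP90AB1 and HSPD1 each had a window with a match of 3 units. The windows of HSPH1 and HSPE1 had none of either kind. On chromosome 2 the HSPD1 window with the match ended at 197500090, and the HSPE1 window began at 197500129. The HSPD1 match thus lay upstream of HSPE1, outside the bases searched for HSPE1. Among 35116 promoter windows of the same length, 0.49% held a match of 3 units and 13.5% held one of 2 units. HSPA1A and HSPA1B also had a TATA box (TATAAA, either strand; 11.5% of windows) and CCAAT boxes (CCAAT, either strand; 34.6% of windows), and the DNAJB1 and HSPA8 windows held CCAAT boxes too. These are matches of letters, and binding was not measured.

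Per length of gene, most of the cytosolic chaperones were among the most abundant transcripts of these cells. By mean RPKM over the 12 libraries, HSPA1A ranked number 42 of 26058 genes, HSPA1B 56, HSP90AB1 69, HSP90AA1 83 and HSPA8 87. HSPD1 (771), HSPH1 (1700), DNAJB1 (2126), HSF1 (3578) and HSPE1 (6321) followed. The length used is that of all annotated exons of a gene. It was 1823 bases for HSPE1 and 2404 for HSPA1A, but 7629 for HSPD1, 8188 for DNAJB1 and 8391 for HSPH1. A longer annotated length lowers RPKM, and its part in these ranks was not tested. The depth behind a value was lowest for HSPE1, with 62 to 383 reads per library, and for HSF1, with 299 to 2313 reads. The other 8 genes had at least 842 reads in every library.

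HSPA1A (ENSG00000204389, GRCh38 chromosome 6, 31815543 to 31817946, plus strand, 1 exon) and HSPA1B (ENSG00000204388, 31827738 to 31830254, plus strand, 1 exon) lie side by side and encode the inducible HSP70, which binds unfolded chains in an ATP-driven cycle. HSPA1A was at 335.5 and 728 RPKM in WT DMSO, 441 and 421 in WT DMSO+EGF, 671 and 803.5 in WT cordycepin+EGF, 620.5 and 746 in AMPK KO DMSO, 624 and 633 in AMPK KO DMSO+EGF, and 415 and 301 in AMPK KO cordycepin+EGF. The 2 WT DMSO libraries thus covered most of the range of all 12, with the lower value in replicate 2. Cordycepin+EGF was the highest group in WT cells and the lowest in AMPK KO cells, and in both lines its libraries were clear of the DMSO+EGF libraries. HSPA1B was at 261 and 646 RPKM in WT DMSO, 337 and 360.2 in WT DMSO+EGF, 569 and 630.0 in WT cordycepin+EGF, 533 and 605 in AMPK KO DMSO, 488 and 539 in AMPK KO DMSO+EGF, and 361 and 224 in AMPK KO cordycepin+EGF. It followed HSPA1A closely: the ratio of HSPA1A to HSPA1B stayed between 1.13 and 1.35 in the 12 libraries. The genes are near-identical, so reads may have been split between them, and 36.6% of the exon length of HSPA1B is shared on the same strand with an annotated long non-coding RNA that was not analysed here. With both genes summed, the lowest and highest of the 12 libraries were AMPK KO cordycepin+EGF replicate 3 (525 RPKM) and WT cordycepin+EGF replicate 3 (1434 RPKM).

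HSPA8 (ENSG00000109971, chromosome 11, 123057489 to 123063230, minus strand) encodes the constitutive HSP70 of the cytosol, which also uncoats clathrin vesicles. It was at 324 and 326 RPKM in WT DMSO, 279 and 344 in WT DMSO+EGF, 249 and 302 in WT cordycepin+EGF, 326 and 329 in AMPK KO DMSO, 350.0 and 350.0 in AMPK KO DMSO+EGF, and 247 and 300.3 in AMPK KO cordycepin+EGF. Its range was the narrowest of the 10 genes, with the highest library 1.42 times the lowest, against 2.67 times for HSPA1A. The cordycepin+EGF groups had nearly equal means in WT (276 ± 37.3 RPKM, SD, n = 2) and AMPK KO cells (274 ± 37.6 RPKM). HSPH1 (ENSG00000120694, chromosome 13, 31134973 to 31162388, minus strand) encodes HSP110, a relative of HSP70 that exchanges its nucleotide. It was at 20.8 and 30.3 RPKM in WT DMSO, 19.8 and 22.4 in WT DMSO+EGF, 21.7 and 25.8 in WT cordycepin+EGF, 29.4 and 29.5 in AMPK KO DMSO, 32.0 and 31.0 in AMPK KO DMSO+EGF, and 18.7 and 19.8 in AMPK KO cordycepin+EGF. AMPK KO replicates of HSPH1 lay close together, and those with cordycepin+EGF were well below the other 4 libraries of that line.

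DNAJB1 (ENSG00000132002, chromosome 19, 14514769 to 14560391, minus strand) encodes HSP40, the J-domain partner that delivers clients to HSP70 and stimulates its ATPase. It was at 11.3 and 25.5 RPKM in WT DMSO, 13.6 and 16.0 in WT DMSO+EGF, 20.9 and 28.3 in WT cordycepin+EGF, 27.4 and 33.0 in AMPK KO DMSO, 24.9 and 26.6 in AMPK KO DMSO+EGF, and 13.4 and 12.9 in AMPK KO cordycepin+EGF. The groups stood in nearly the same order as for HSPA1A, and the WT DMSO replicates were again far apart, with replicate 2 the lowest of the 12 libraries. TECR, on the opposite strand, shares 6.4% of its exon length, and the sources used here do not say whether reads were counted by strand.

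HSP90AA1 (ENSG00000080824, chromosome 14, 102080742 to 102139699, minus strand) and HSP90AB1 (ENSG00000096384, chromosome 6, 44246166 to 44253888, plus strand) encode the inducible and the constitutive HSP90, which finish the folding of kinases and receptors. HSP90AA1 was at 309 and 370.1 RPKM in WT DMSO, 295 and 338 in WT DMSO+EGF, 296 and 406 in WT cordycepin+EGF, 356 and 399 in AMPK KO DMSO, 407 and 384 in AMPK KO DMSO+EGF, and 207 and 265 in AMPK KO cordycepin+EGF. All 10 other libraries were above the pair from AMPK KO cells with cordycepin+EGF, and the 3 WT groups overlapped. HSP90AB1 was at 482.5 and 395 RPKM in WT DMSO, 429 and 539 in WT DMSO+EGF, 327.5 and 399 in WT cordycepin+EGF, 402 and 431 in AMPK KO DMSO, 446 and 419 in AMPK KO DMSO+EGF, and 323 and 426.5 in AMPK KO cordycepin+EGF. Its groups overlapped at every step of their order. Processed pseudogenes held 4.87 to 8.33% of the reads assigned to HSP90AA1 and its copies, and 8.78 to 11.3% for HSP90AB1.

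HSPD1 (ENSG00000144381, chromosome 2, 197486584 to 197516737, minus strand) and HSPE1 (ENSG00000115541, chromosome 2, 197500140 to 197503449, plus strand) are neighbours that encode HSP60 and HSP10, the chamber and the lid of the mitochondrial chaperonin. HSPD1 was at 37.9 and 36.8 RPKM in WT DMSO, 40.2 and 45.9 in WT DMSO+EGF, 28.8 and 43.7 in WT cordycepin+EGF, 49.8 and 61.6 in AMPK KO DMSO, 58.1 and 52.5 in AMPK KO DMSO+EGF, and 37.2 and 51.4 in AMPK KO cordycepin+EGF. HSPE1 was at 4.74 and 8.45 RPKM in WT DMSO, 6.38 and 4.37 in WT DMSO+EGF, 6.01 and 8.48 in WT cordycepin+EGF, 9.55 and 12.7 in AMPK KO DMSO, 9.16 and 11.5 in AMPK KO DMSO+EGF, and 6.85 and 7.01 in AMPK KO cordycepin+EGF. For both genes the AMPK KO libraries with DMSO or DMSO+EGF lay above all 6 WT libraries. The values of HSPE1 are the least certain of the 10, because 51.7 to 71.1% of the reads assigned to it and its processed pseudogenes were on the pseudogenes, against 17.2 to 20.7% for HSPD1.

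HSF1 (ENSG00000185122, chromosome 8, 144291591 to 144314720, plus strand) encodes the factor that binds heat shock elements. It was at 8.39 and 14 RPKM in WT DMSO, 13.02 and 12.1 in WT DMSO+EGF, 15.1 and 18.6 in WT cordycepin+EGF, 15.5 and 16.1 in AMPK KO DMSO, 13.6 and 15.4 in AMPK KO DMSO+EGF, and 11.7 and 11.7 in AMPK KO cordycepin+EGF. The highest group was WT cordycepin+EGF, as for HSPA1A and HSPA1B. HSF1 is regulated mainly as a protein, by trimer formation and phosphorylation, which RNA levels do not show.

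**Figure D1:**
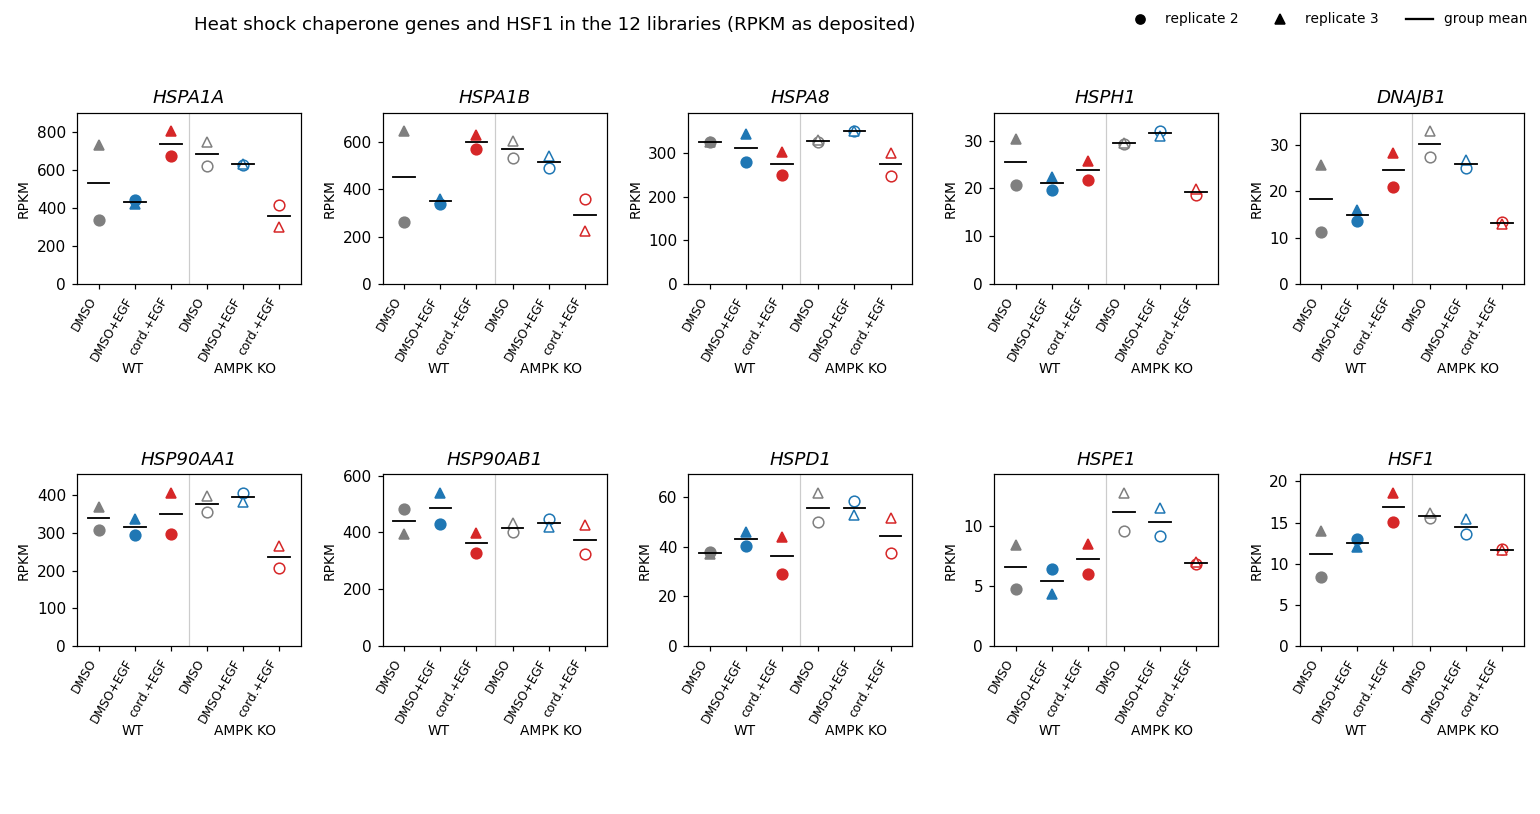
RPKM as deposited (vertical axis, from 0) of the 10 genes in the 12 libraries, by group along the horizontal axis; filled points are WT and open points AMPK KO libraries, circles replicate 2, triangles replicate 3, and lines the means of 2 libraries. In HSPA1A, HSPA1B and DNAJB1 the cordycepin+EGF points lie above the DMSO+EGF points in WT and below them in AMPK KO cells, and the WT DMSO points are far apart.

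The response of each line to EGF was read from DMSO+EGF against DMSO. None of the 10 genes differed detectably. Log2 fold changes (of upper-quartile-scaled RPKM + 0.5) ran from -0.28 (HSPH1) to 0.17 (HSPD1 and HSF1) in WT cells and from -0.21 (DNAJB1) to 0.11 (HSPA8) in AMPK KO cells. Their medians were -0.18 and -0.04, against 0.02 and 0.01 over all 22067 genes tested. By limma, 0 of the 10 passed an adjusted p under 0.05 in WT cells, as 0.0227% of all genes did, and 0 had an unadjusted p under 0.05, as 9.72% did. In AMPK KO cells both counts were again 0, beside 0.0136% and 2.42% of all genes. For the difference between the lines in the EGF response, 0 of 10 passed either threshold, beside 0% and 8.69% of all genes. Precision was low for the inducible genes in WT cells: the 95% interval for HSPA1A was -0.999 to 0.547. These values rested on the WT DMSO libraries. With WT DMSO replicate 2 left out, so that its group is represented by the least deep library, 5 of the 10 genes had an unadjusted p under 0.05 in WT cells, beside 24.1% of all genes, and 0 passed adjustment. In that fit HSF1 changed sign, to -0.18. Without replicate 3 instead, HSPA1A, HSPA1B, DNAJB1 and HSPE1 changed sign, to 0.33, 0.38, 0.34 and 0.11. HSP90AB1 changed sign as well, to -0.04, and HSF1 was at 0.52. With a replicate block within each line 1 gene had an unadjusted p under 0.05 (HSPH1, -0.28, limma p 0.049, adjusted p 0.466). Of all genes, 10.7% reached that threshold. The limma fit with voom weights on recovered reads gave 0 of the 10 genes at either threshold in both lines. Of all genes, 8.56% in WT and 2.03% in AMPK KO cells had an unadjusted p under 0.05 in that fit. Adjustment was passed by 0.0424% and 0.0188%.

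Cordycepin was compared with DMSO under EGF, first in WT cells. The inducible HSP70 genes, DNAJB1 and HSF1 were higher with cordycepin in both libraries, but no gene passed adjustment. HSPA1A went from 431 ± 14.4 to 737 ± 93.7 RPKM (SD, n = 2), a change of 0.81 on the log2 scale (SE 0.341, limma p 0.0414, adjusted p 0.298). DNAJB1 went from 14.8 ± 1.69 to 24.6 ± 5.2 RPKM (SD, n = 2), a change of 0.74 on the log2 scale (SE 0.306, limma p 0.038, adjusted p 0.293). HSPA1B had a like fold change of 0.82 with a wider error (SE 0.386, limma p 0.062), and HSF1 one of 0.45 (SE 0.202, limma p 0.0533). HSPA8, HSP90AB1 and HSPD1 were lower with cordycepin on average, by -0.13, -0.37 and -0.23. With 1 library left out, HSPA8 ran from -0.271 to 0.006 and HSPD1 from -0.511 to 0.053. HSP90AB1 stayed below 0, from -0.521 to -0.215. In all, 0 of the 10 passed an adjusted p under 0.05, beside 0.00453% of all genes, and 2 had an unadjusted p under 0.05, both higher, beside 16% of all genes in either direction. With voom weights on recovered reads the unadjusted count was 5, beside 24% of all genes, and the adjusted count 0, beside 3.98%. With RPKM as deposited or median-ratio scaling the unadjusted count was 0, beside 16.3% and 16.2% of all genes. HSPA1A and DNAJB1 then had limma p-values of 0.0519 to 0.0558. With the near-identical HSPA1A and HSPA1B summed, the fold change was 0.82 and its limma p 0.0663, which was no longer under 0.05. The cordycepin libraries lay wholly above those without it for 4 genes, beside 25.7% of all genes, and wholly below for HSP90AB1. The median over the 10 genes was 0.33, against 0.03 over all genes.

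In AMPK KO cells all 10 genes had a lower mean with cordycepin than without, with log2 fold changes from -0.90 to -0.17 and a median of -0.57, against 0.06 over all genes. DNAJB1 went from 25.8 ± 1.21 to 13.2 ± 0.417 RPKM (SD, n = 2), a change of -0.90 on the log2 scale (SE 0.306, limma p 0.0167, adjusted p 0.146). HSPH1 went from 31.5 ± 0.735 to 19.2 ± 0.827 RPKM (SD, n = 2), a change of -0.65 on the log2 scale (SE 0.162, limma p 0.0031, adjusted p 0.0851). HSP90AA1 went from 395 ± 16.4 to 236 ± 41.3 RPKM (SD, n = 2), a change of -0.71 on the log2 scale (SE 0.206, limma p 0.00766, adjusted p 0.111). HSPA1A went from 628 ± 6.08 to 358 ± 80.0 RPKM (SD, n = 2), a change of -0.78 on the log2 scale (SE 0.341, limma p 0.0481, adjusted p 0.225). These 4 were the only ones with an unadjusted p under 0.05, beside 21.8% of all genes, and 0 passed adjustment, beside 0.471%. HSPA1A was no longer among them when summed with HSPA1B (-0.79, limma p 0.074). For 9 genes, HSP90AB1 being the exception, both cordycepin libraries lay below both libraries without it, beside 30% of all genes. HSPA8, HSPD1 and HSF1 were among those 9 with fold changes of -0.31, -0.29 and -0.25. The adjusted count depended on libraries outside this comparison, since the spread was shared by all 12. Without either WT DMSO library, HSPH1 (adjusted p 0.0274 without replicate 2, 0.0273 without replicate 3) and DNAJB1 (0.0282 and 0.0281) passed, beside 6.16% and 6.12% of all genes. With voom weights on recovered reads, HSPH1, HSP90AA1 and DNAJB1 passed, beside 6.04% of all genes. In a fit of the 2 groups compared, 0 of the 10 passed, beside 0% of all genes, and HSPH1 and DNAJB1 each had an adjusted p of 0.101.

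The difference between the lines in the response to cordycepin was then tested itself. It was negative for 9 of the 10 genes, meaning a lower response in AMPK KO than in WT cells, and HSP90AB1 was the exception at 0.196. The values were -1.64 for DNAJB1 (SE 0.433, limma p 0.00428, adjusted p 0.124), -1.63 for HSPA1B (SE 0.546, limma p 0.0156, adjusted p 0.153) and -1.59 for HSPA1A (SE 0.483, limma p 0.0093, adjusted p 0.139). They were smaller for HSPE1 (-0.93, limma p 0.0458), HSP90AA1 (-0.885, limma p 0.0142), HSPH1 (-0.86, limma p 0.00455) and HSF1 (-0.70, limma p 0.0374). For HSPA8 and HSPD1 the values were -0.18 (95% interval -0.74 to 0.37) and -0.06 (-0.72 to 0.61), so that a difference was not detected and a moderate one in either direction was within the interval. An unadjusted p under 0.05 was thus reached by 7 of 10 genes, all negative. Of all genes, 21.4% reached it and 10.5% did so with a negative value. The near-identical HSPA1A and HSPA1B are both among the 7 and count as about 1 observation. The 10 genes were also chosen with earlier results of these data known. HSPE1 was 1 of the 7 only without its pseudogenes, since with their values added it was at -0.44 (limma p 0.142). At an adjusted p under 0.05 the count was 0 of 10, beside 0% of all genes. The median over the 10 genes was -0.87, against 0.02 over all genes. Both libraries with cordycepin were above both without it in WT cells and below both in AMPK KO cells for 4 genes (HSPA1A, HSPA1B, DNAJB1 and HSF1), beside 8.29% of all genes.

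The count of 0 past adjustment changed with the WT DMSO libraries, which take no part in the contrast but add to the shared spread. Without WT DMSO replicate 2, 5 genes passed: DNAJB1 (adjusted p 0.0189), HSPH1 (0.0208), HSPA1A (0.0324), HSPA1B (0.0354) and HSF1 (0.0407), beside 9.06% of all genes. Without replicate 3 the same 5 genes passed, beside 9.09%. In a fit of the 4 groups compared, DNAJB1 (0.0381) and HSPH1 (0.04) passed, beside 5.11% of all genes, and HSPA1A had an adjusted p of 0.0519. The voom fit called HSPA1A, HSPA1B, HSPH1, HSP90AA1 and DNAJB1, beside 9.35% of all genes. The fold changes themselves did not depend on the WT DMSO libraries.

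**Figure D2:**
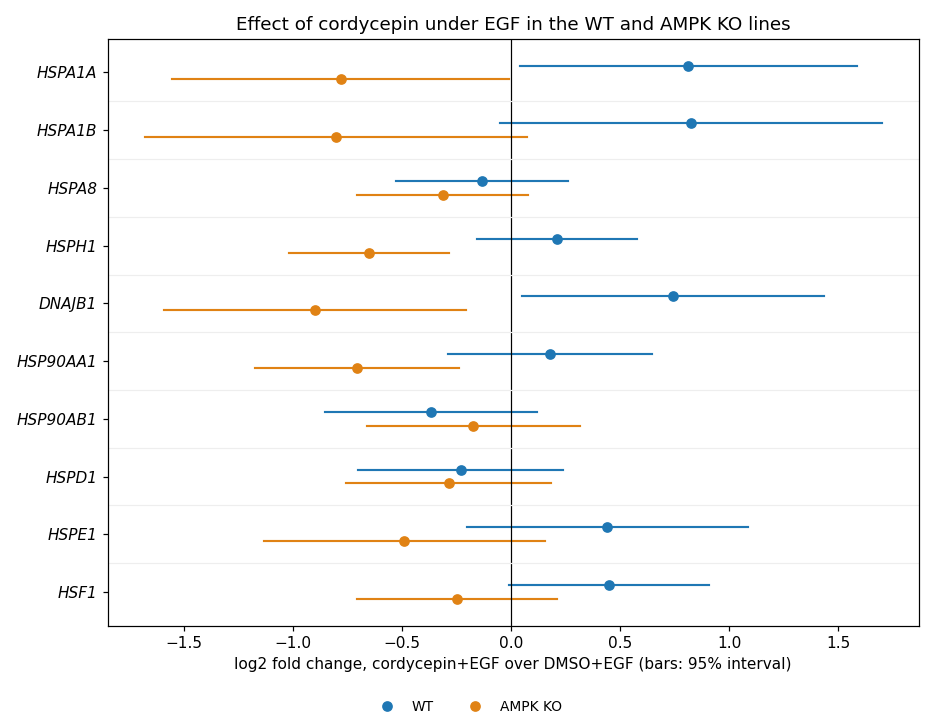
Log2 fold change of cordycepin+EGF over DMSO+EGF (horizontal axis) for the 10 genes (vertical axis) in WT (blue) and AMPK KO cells (orange), with points for the estimates and bars for 95% intervals of the limma fit to all 12 libraries. HSPA1A, HSPA1B and DNAJB1 lie near 0.8 in WT cells and between -0.78 and -0.90 in AMPK KO cells. The estimates of HSPA8, HSP90AB1 and HSPD1 lie below 0 in both, and their bars cross 0.

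AMPK KO and WT cells were compared under each treatment to see how the lines differed to begin with. In DMSO, DNAJB1, HSPE1, HSPD1 and HSF1 were higher in AMPK KO cells, with log2 fold changes of 0.78 (SE 0.306, limma p 0.0308), 0.73 (SE 0.284, limma p 0.0298), 0.54 (SE 0.207, limma p 0.0288) and 0.50 (SE 0.202, limma p 0.035). These 4 of 10 had an unadjusted p under 0.05, beside 21.3% of all genes, and 0 passed adjustment, beside 0.44%. With pseudogenes added HSPE1 was at 0.32 (limma p 0.136) and left the 4. The libraries lay wholly above for 5 genes, beside 26.4% of all genes. The fifth was HSPA8, whose nearest libraries in the 2 groups were both 326 RPKM after rounding and whose scaled fold change was -0.01. This comparison rested on the WT DMSO pair. HSPA1A, HSPA1B and HSPH1 were at -0.114, -0.202 and -0.057 without WT DMSO replicate 2, and so below 0. Leaving out replicate 3 instead put them at 0.991, 1.091 and 0.465. Without WT DMSO replicate 3, 4 genes passed adjustment (HSPH1, DNAJB1, HSPE1 and HSF1, beside 13.9% of all genes), and without replicate 2 none did, 0 had an unadjusted p under 0.05 (beside 16.5%), and DNAJB1, HSPE1 and HSF1 were at 0.22, 0.35 and 0.15. The voom fit called DNAJB1, HSPE1 and HSF1, beside 7.96% of all genes.

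Under EGF, HSPE1, DNAJB1 and HSPH1 were higher in AMPK KO cells, by 0.91 (SE 0.284, limma p 0.0109, adjusted p 0.112), 0.80 (SE 0.306, limma p 0.0283, adjusted p 0.168) and 0.59 (SE 0.162, limma p 0.00552, adjusted p 0.0883) on the log2 scale. These 3 of 10 had an unadjusted p under 0.05, beside 22.5% of all genes, and 0 passed adjustment, beside 1.74%. With pseudogenes added HSPE1 was at 0.58 (limma p 0.0153). The AMPK KO libraries lay wholly above the WT libraries for 9 genes, HSP90AB1 again being the exception, beside 30% of all genes. The same 3 genes passed adjustment without either WT DMSO library, beside 10.7% of all genes, and in the voom fit, beside 11%. Medians over the 10 genes were 0.44 in DMSO and 0.47 under EGF, against 0.01 and -0.01 over all genes.

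With cordycepin and EGF the inducible genes had lower means in AMPK KO than in WT cells. HSPA1B, HSPA1A, DNAJB1, HSP90AA1 and HSF1 were lower in AMPK KO cells, with log2 fold changes of -1.05 (SE 0.386, limma p 0.0234), -1.03 (SE 0.341, limma p 0.0144), -0.84 (SE 0.306, limma p 0.0224), -0.55 (SE 0.206, limma p 0.0267) and -0.48 (SE 0.202, limma p 0.0415). These 5 of 10 had an unadjusted p under 0.05, beside 13.7% of all genes, and 0 passed adjustment, beside 0.118%. Both AMPK KO libraries were below both WT libraries for 6 genes, beside 23.2% of all genes. The constitutive HSPA8 and HSP90AB1 were at 0.01 and 0.06, and HSPD1 was at 0.32, on the side of AMPK KO cells in all 3 treatments. The median over the 10 genes was -0.38, against 0.01 over all genes. The voom fit called HSPA1A alone, beside 1.45% of all genes. Without WT cordycepin+EGF replicate 3, DNAJB1, HSP90AA1 and HSF1 were at -0.645, -0.335 and -0.351. Without replicate 2 of that group they were at -1.04, -0.757 and -0.61.

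**Figure D3:**
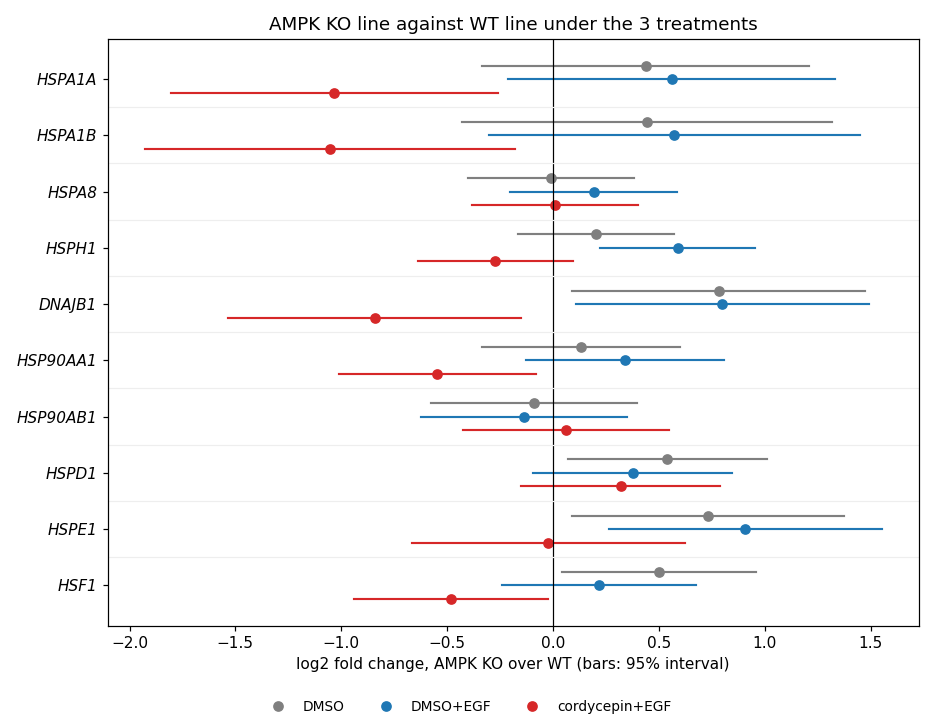
Log2 fold change of AMPK KO over WT cells (horizontal axis) for the 10 genes (vertical axis) in DMSO (grey), DMSO+EGF (blue) and cordycepin+EGF (red), with bars for 95% intervals of the limma fit. With all 12 libraries, HSPA1A, HSPA1B, HSPH1, HSP90AA1, DNAJB1 and HSF1 lie above 0 in DMSO and DMSO+EGF and below 0 in cordycepin+EGF. Without WT DMSO replicate 2, the DMSO values of HSPA1A, HSPA1B and HSPH1 were below 0.

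How the genes varied together over the 12 libraries is described here without a test, since libraries of a group share their treatment. HSPA1A, HSPA1B, DNAJB1 and HSF1 varied together, with Pearson r of log2 values between 0.82 and 0.99 in each pair. The 0.99 is that of the near-identical HSPA1A and HSPA1B, and the next highest was 0.93 (HSPA1A with DNAJB1). All r include the WT DMSO libraries, which were far apart for these genes, and r without them was not computed. Genes outside the chaperone lists reached r as high, as given below, so such an r is not particular to chaperones. The share of all genes with such an r was not computed. HSPH1 went with DNAJB1 (r = 0.88) and HSP90AA1 (r = 0.84). HSPA8 varied instead with HSP90AB1 (r = 0.72) and HSP90AA1 (r = 0.71), and hardly with HSPA1A (r = 0.10). HSP90AB1 and HSPA1A had a negative r (-0.42), although both had a lower mean with cordycepin than without in AMPK KO cells. Among 9074 genes with a mean of at least 5 RPKM, the most like HSPA1A over the 12 libraries were DIP2A (r = 0.966), CAMLG (0.957) and DRAP1 (0.955). For DNAJB1 they were TRIM35 (0.993), MRPS7 (0.992) and TSTD2 (0.99), for HSPA8 GART (0.971), UBA2 (0.964) and UBLCP1 (0.963), and for HSPD1 its own pseudogene HSPD1P4 (0.957), ATP5F1A (0.956) and ACAT2 (0.95). HSPD1P4 shares sequence with HSPD1, so reads may have been split between them.

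**Figure D4:**
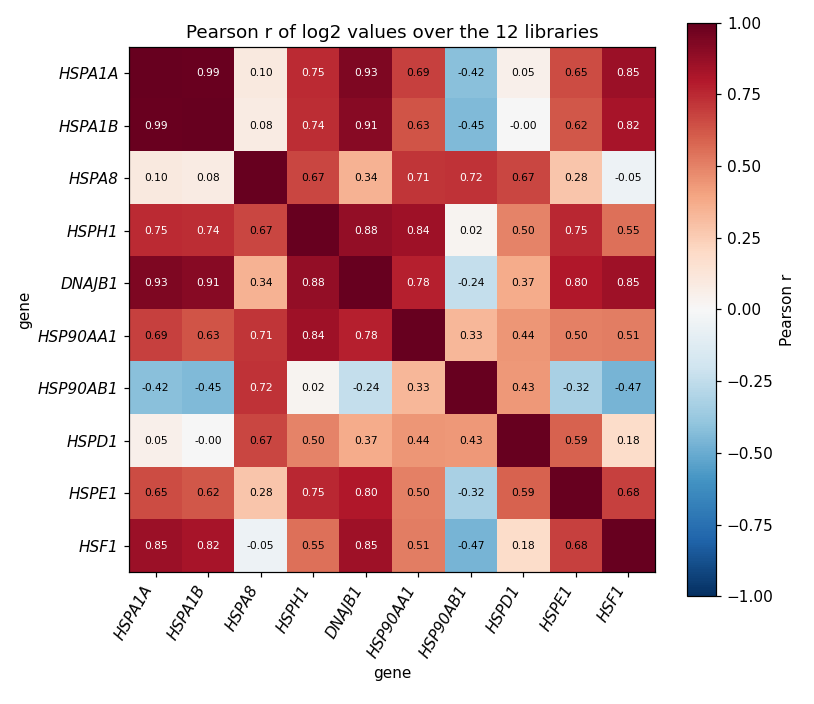
Pearson r of log2 values over the 12 libraries for each pair of the 10 genes (both axes), red for positive and blue for negative values. HSPA1A, HSPA1B, DNAJB1 and HSF1 are red with each other, and HSP90AB1 is blue with each of them.

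The wider chaperone network was read from 6 lists with 74 genes, of which 72 were tested. CRYAB was not analysed here, and HSPA6, a strictly inducible HSP70, was too low at 0.355 RPKM on average. With cordycepin in WT cells, 9 of the 72 genes were higher and 6 lower at an unadjusted p under 0.05, near the share of all genes (8.86% higher and 7.13% lower), and 0 passed adjustment. The 3 with the smallest p were HSPA1L, a relative of HSP70 next to HSPA1A (log2 fold change 1.68, SE 0.371, adjusted p 0.252), CRELD2, a protein of the endoplasmic reticulum (0.775, SE 0.249, adjusted p 0.267), and HTRA2, a mitochondrial protease (0.73, SE 0.239, adjusted p 0.267). HSPA1L was at 0.628 and 0.682 RPKM in WT DMSO+EGF and 4.29 and 2.23 RPKM in WT cordycepin+EGF.

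With cordycepin in AMPK KO cells, 25 of the 72 genes were lower and 1 was higher at an unadjusted p under 0.05, where 10.1% of all genes were lower and 11.7% higher. None passed adjustment, and the median was -0.23 against 0.06 over all genes. By list, 8 of 16 HSF1-induced genes outside the 10 were lower, 7 of 20 cytosolic partners of HSP70 and HSP90, 3 of 6 HSF family genes and HSF1 regulators, 3 of 8 subunits of the cytosolic chaperonin TRiC, and 3 of 10 mitochondrial chaperones and proteases. Of 12 chaperones of the endoplasmic reticulum, 1 was lower and 1 higher, with a median of 0.07. The genes with the smallest p were HSF2, a second heat shock factor (log2 fold change -0.61, SE 0.119, adjusted p 0.0606), CHORDC1, a partner of HSP90 (-0.58, SE 0.115, adjusted p 0.062), and SIRT1, a deacetylase that acts on HSF1 (-0.68, SE 0.148, adjusted p 0.068). CHORDC1 was at 10.1 and 10.8 RPKM in AMPK KO DMSO+EGF and at 6.74 and 6.46 RPKM with cordycepin.

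For the difference between the lines in the cordycepin response, 25 of the 72 were negative and 3 positive at an unadjusted p under 0.05, where 10.5% of all genes were negative and 10.9% positive. CHORDC1 (-0.90, SE 0.162), HSBP1, a small protein that binds HSF1 (-0.745, SE 0.164), and DEDD2 (-1.31, SE 0.298) had the smallest p, each with an adjusted p of 0.122. With EGF few genes of the lists reached that threshold. In WT cells 2 were higher and 3 lower, beside 6.18% and 3.53% of all genes, and the count of 5 became 8 with the replicate block. In AMPK KO cells 1 was lower, beside 1.4%. For the difference between the lines 2 were positive and 2 negative, beside 3.3% and 5.38%, and 0 passed adjustment in any of these. The named ones were STUB1, a ubiquitin ligase that works with HSP70 (0.42 in WT and -0.35 in AMPK KO cells, adjusted p 0.466 and 1), BAG2, a regulator of that ligase (-0.35 in WT cells, adjusted p 0.485), and CHORDC1 (-0.32 in WT cells, adjusted p 0.494).

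Between the lines, 2 genes of the lists passed adjustment, both under EGF and both higher in AMPK KO cells, where 1.74% of all genes passed, so that the count is near the background. MRPL18, a mitochondrial ribosomal protein with a stress-induced cytosolic form, went from 38.4 and 36.9 RPKM in WT to 59.9 and 57.7 RPKM in AMPK KO DMSO+EGF (log2 fold change 0.65, SE 0.116, limma adjusted p 0.0384). HSBP1 went from 8.71 and 9.2 RPKM to 13.9 and 13.8 RPKM (0.62, SE 0.116, limma adjusted p 0.0427). In DMSO, MRPL18 (0.66, adjusted p 0.0511), UNC45A (0.80, adjusted p 0.0729) and HSPB1, a small heat shock protein (-0.85, adjusted p 0.11), had the smallest p. Under cordycepin and EGF, 15 of the 72 were lower in AMPK KO cells at an unadjusted p under 0.05 and 0 were higher, beside 6.64% and 7.1% of all genes. The smallest p belonged to HSPA1L (-1.44, adjusted p 0.219), CHORDC1 (-0.41, adjusted p 0.237) and PTGES3, the HSP90 partner p23 (-0.59, adjusted p 0.259). Comparisons that share libraries are not independent: the cordycepin and EGF contrasts share the DMSO+EGF groups, and the line contrasts reuse the same libraries.

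RNA was measured in bulk, so fewer cells with a transcript and less transcript per cell cannot be told apart. Protein levels, HSF1 activation and longer treatment were not measured in these libraries.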

How the data were processed

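RNA of 12 libraries in 6 groups of 2 was sequenced by the authors as stranded, ribosomal RNA-depleted read pairs, mapped to GRCh38.p13 and counted per gene with Rsubread. Versions and annotation are not given in the sources used here. The authors deposited RPKM values (reads per kilobase, scaled to library size) without replicate 1 of each condition, which was not analysed here. Groups and replicate numbers came from the labels. IDs were matched to GENCODE release 44 (26029 of 26058 genes), and 2 rows that name no gene were left out.

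RPKM values were scaled by each library's upper quartile, as in the study. Values of the 22067 genes whose mean RPKM reached 0.5 were analysed as log2(value + 0.5) with limma 3.58.1 in R 4.3.3 (trend, all 12 libraries in 1 fit, two-sided, Benjamini-Hochberg over all genes within each of 9 comparisons). The moderated degrees of freedom were 8.96. Fold changes on this scale understate those of low genes. Printed RPKM values and their overlaps are as deposited. Reads were recovered from the RPKM steps, with whole values within 0.05 of a read in all 12 libraries for 96.2% of genes, all 10 reported genes among them. Read numbers give counting error only, and reads carry no molecular identifiers.

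All 10 genes are named, with statistics where the unadjusted p was under 0.05. From the 6 wider lists up to 3 genes with the smallest p are named per comparison. Members and lists were chosen with earlier results of these data known. Alternatives covered the pseudocount, filter, scaling, groups in the fit, replicate block, voom on recovered reads, summed HSPA1A and HSPA1B, added pseudogenes and each library left out. Array weights were added after seeing the data. The limma fit was tested on simulated data with the same relative spread in every gene and library. It returned changes of about the right size, with larger falls somewhat shrunk, and few false calls. Most of the smaller changes and many of the larger falls were missed. The simulation held no replicates as far apart as the WT DMSO pair, so its rate of false calls need not hold here. Promoter sequences are from RefSeq (GRCh38.p14).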

Additional observations from a re-analysis of the deposited data

Results flagged for a closer look

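For 4 genes the response to cordycepin went in opposite directions in the lines: both WT libraries with cordycepin+EGF lay above both WT DMSO+EGF libraries, and both AMPK KO libraries with cordycepin+EGF lay below both AMPK KO DMSO+EGF libraries. Of all genes tested, 8.29% showed this pattern. The difference, as the log2 effect in AMPK KO minus that in WT, was -1.642 for DNAJB1 (limma p 0.00428, adjusted p 0.124), -1.627 for HSPA1B (p 0.0156, adjusted p 0.153), -1.593 for HSPA1A (p 0.0093, adjusted p 0.139) and -0.698 for HSF1 (p 0.0374, adjusted p 0.208), in the fit across all genes. None of the 4 passed adjustment with all 12 libraries. Leaving out either WT DMSO library, which takes no part in this contrast, left the 4 differences unchanged in size. HSPA1A and HSPA1B are near-identical and count as about 1 observation.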

How the results depend on the processing

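Among refits of the member fold changes with an unadjusted p under 0.05, 514 kept the direction and that threshold, 97 kept only the direction, and 0 changed direction. Fold changes with a larger p were not in this tally, so it cannot show how often direction held over all of them. Some of those changed sign with 1 library left out. HSPA1A ran from -0.779 to 0.327 for EGF WT and from -0.114 to 0.991 for line DMSO. Counts are given here as members past adjustment, members at an unadjusted p under 0.05 (unadjusted) or genes of the wider lists at an unadjusted p under 0.05 (wider). Pseudocounts, filters on low values and eBayes without trend kept member counts within 1.5 times, and wider genes in the EGF interaction fell from 4 to 2 without trend. RPKM as deposited and median-ratio scaling gave 0 unadjusted members for cordycepin in WT cells (beside 16.3% and 16.2% of all genes), from 2 (16%). With only the groups compared, unadjusted members were 4 for cordycepin WT (beside 21.3% of all genes), 1 for line DMSO (10.9%) and 6 for line EGF (32.8%). Members past adjustment were 2 for the cordycepin interaction (beside 5.11% of all genes) and 2 for line EGF (10%). Wider genes were 1 for EGF WT (beside 4.79% of all genes), 4 for EGF AMPK KO (5.7%) and 7 for line DMSO (10.9%). With voom on recovered reads, members past adjustment were 3 for cordycepin AMPK KO (6.04% of all genes), 5 for the cordycepin interaction (9.35%), 3 for line DMSO (7.96%), 3 for line EGF (11%) and 1 for line cordycepin (1.45%). Unadjusted members were 5 for cordycepin WT (beside 24% of all genes) and 7 for cordycepin AMPK KO (25.6%). With array weights, members past adjustment were 2 for cordycepin AMPK KO (beside 5.41% of all genes), 4 for the cordycepin interaction (6.6%) and 3 for line EGF (22.8%). Unadjusted members were 4 for cordycepin WT (beside 23.4% of all genes), 2 for line DMSO (12.9%) and 6 for line EGF (36.8%). Wider genes were 2 for EGF WT (beside 4.65% of all genes) and 2 for EGF AMPK KO (6.98%). Adding pseudogenes moved the HSPE1 cordycepin interaction to -0.44 (p 0.142) and its line DMSO difference to 0.32 (p 0.136). The cause of these shifts was not tested.

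Replicate 2 minus replicate 3, taken gene by gene, correlated at 0.136 to 0.314 between WT groups and at -0.122 to 0.031 between AMPK KO groups. Between a WT and an AMPK KO group the values ran from -0.081 to 0.322, so the numbers did not pair cleanly by line. Replicate 2 was the deeper library in every WT group, and its part in these values was not tested. No source says what a number shares, so any pairing is a hint from the data. With the replicate block, 0 members passed adjustment in any comparison, and wider genes for EGF WT were 8, from 5. With a replicate block per cell line there was 1 unadjusted member for EGF WT, and wider genes in the EGF interaction were 7.

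With each library left out in turn, unadjusted members were 0 to 5 for EGF WT, 0 to 4 for cordycepin WT, 2 to 5 for cordycepin AMPK KO, 0 to 2 for the EGF interaction, 4 to 7 for the cordycepin interaction, 0 to 6 for line DMSO, 1 to 4 for line EGF and 1 to 6 for line cordycepin. Members past adjustment were 0 to 2 for cordycepin AMPK KO, 0 to 5 for the cordycepin interaction, 0 to 4 for line DMSO and 0 to 3 for line EGF, and the higher numbers came without 1 of the WT DMSO libraries. Wider genes were 1 to 20 for EGF WT, 0 to 1 for EGF AMPK KO, 5 to 17 for cordycepin WT, 12 to 27 for cordycepin AMPK KO, 1 to 12 for the EGF interaction, 14 to 33 for the cordycepin interaction, 6 to 24 for line DMSO, 9 to 28 for line EGF and 5 to 23 for line cordycepin. The lowest cordycepin counts came without any 1 of the 4 DMSO+EGF libraries (cordycepin WT 0, from 2), without AMPK KO DMSO+EGF replicate 3 or AMPK KO cordycepin+EGF replicate 3 (cordycepin AMPK KO 2, from 4) and without the latter (cordycepin interaction 4, from 7).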
